A study of Mus musculus with 12 samples.

Results

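Expression of 10 genes of the hepatic acute phase response and of the interleukin-6 (IL-6) signal that drives it was measured by RNA sequencing in livers of mice with diet-induced steatohepatitis. The 10 genes were chosen by name: the secreted acute phase proteins Saa1, Saa2, Orm1, Orm2, Hp and Apcs, and the signalling genes Socs3, Stat3, Il6st and Il6ra. All 10 were among the 11791 genes of the deposited table, and a filter on low values, a mean signal of at least 1 in at least 1 group, removed 0 genes. Levels are given in RPM, the deposited signal, in which reads were scaled per library so that columns sum to 0.922 to 1.06 M. Between groups, Apcs and Socs3 were the members that passed the test, Apcs higher and Socs3 lower in mice given an antibody against the neutrophil protein Ly6G than in controls. In that comparison 30.4% of all genes passed. Socs3 did not pass in a limma fit that also held a label for the origin of the mitochondria (adjusted p = 0.142). Serum amyloid A (Saa1 and Saa2) was by far the highest in a single pool of the antibody group. None of the 10 passed between knockout and control pools.

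Male mice, 10 weeks old, ate a diet lacking methionine and choline (MCD), which causes steatohepatitis, over 3 weeks, and their liver RNA was sequenced in 3 groups. KO mice lacked the stress kinases p38γ (gene Mapk12) and p38δ (gene Mapk13) through Lyzs-Cre, a Cre driver active in myeloid cells. Mice of the anti-Ly6G group had Lyzs-Cre without the deletion and were treated with an antibody that the source names give as Ly6G and the titles as GR1. The control group carried Lyzs-Cre alone on the same diet, so the Cre allele and the diet are shared by every pool, and no pool from a mouse on normal chow or without Cre was used here. Each group had 4 pools, and each pool mixed RNA of 2 animals in equal parts. A number of 12 males for each genotype is also stated, more than 4 pools of 2 animals hold. All pools carried the strain label C57BL/6. A separate label for the origin of the mitochondria, with a protocol describing conplastic lines, was C57 for KO pools 1 and 2, NZB for KO pools 3 and 4, NZB for every anti-Ly6G pool and C57 for every control pool. Treatment with the antibody therefore cannot be told apart from the NZB label in the comparison with control, except by way of the KO pools. A fit with the label as a covariate takes the label's effect from KO pools 1 and 2 against 3 and 4 alone. It assumes that the effect is the same in mice without the deletion, which was not tested. The p-values measure the spread between pools.

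The acute phase response is a rapid change in what hepatocytes secrete after infection, injury or inflammation. IL-6 binds the receptor chain encoded by Il6ra, which pairs with gp130, encoded by Il6st, and the complex activates the kinase JAK1 and the transcription factor STAT3. STAT3, together with C/EBP and NF-kB factors downstream of IL-1 and TNF, raises transcription of genes for serum amyloid A, orosomucoid, haptoglobin and fibrinogen. It also induces Socs3, whose product binds gp130 and shuts the signal off. In the mouse, serum amyloid A and serum amyloid P (Apcs) are the main inducible members, while albumin and transthyretin are among the proteins that fall.

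Depth was 18.8 to 22.3 M reads in KO pools, 13.1 to 21.0 M in anti-Ly6G pools and 14.4 to 19.9 M in control pools. Mapk12, a target of the deletion, had a signal of 1.63, 1.79, 2.70 and 3.06 in KO pools 1 to 4, against 2.08, 1.75, 2.14 and 2.71 in control pools 1 to 4. Its log2 fold change was 0.046 (limma adjusted p = 0.922), and Mapk13 was not among the listed genes, so whole-liver RNA does not check the deletion in myeloid cells. All 14 hepatocyte markers were listed, and their summed signal was 119226 to 145359 in KO, 122231 to 164272 in anti-Ly6G and 128072 to 148149 in control pools. Anti-Ly6G pool 3 stood apart in Saa1, Saa2 and Orm2, and KO pools 1 and 2 were above KO pools 3 and 4 in all 6 secreted members.

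Saa1 and Saa2 encode serum amyloid A, a lipoprotein-bound protein that rises steeply in inflammation. They lie side by side on chromosome 7 (GRCm38, Saa1 from 46740497 to 46742980 on the minus strand, Saa2 from 46751790 to 46754313 on the plus strand). Only 45.8% of the 25-base words in annotated Saa1 exons and 48.0% of those in Saa2 occur in no other gene, so the split of reads between the 2 genes is uncertain. Their upstream sequences are shown because the 2 genes moved together; each line is the 250 bases before the RefSeq start site, 5′ to 3′, from GRCm38.p6, chr7:46742981-46743230 on the minus strand for Saa1 and chr7:46751583-46751832 on the plus strand for Saa2. Capitals mark the match to the C/EBP motif TTGCNNAA.
Saa1: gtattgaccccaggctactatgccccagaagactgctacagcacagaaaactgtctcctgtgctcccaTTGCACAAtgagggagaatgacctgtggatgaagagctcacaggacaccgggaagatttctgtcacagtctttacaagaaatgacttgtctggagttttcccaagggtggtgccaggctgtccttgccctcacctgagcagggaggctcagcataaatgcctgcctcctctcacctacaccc
Saa2: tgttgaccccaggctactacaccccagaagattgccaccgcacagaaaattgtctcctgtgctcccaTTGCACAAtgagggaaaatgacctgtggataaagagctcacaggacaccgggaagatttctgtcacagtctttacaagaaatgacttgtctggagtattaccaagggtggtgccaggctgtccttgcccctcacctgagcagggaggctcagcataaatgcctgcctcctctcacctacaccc
The last bases printed for Saa2 lie inside its GENCODE gene, which starts before the RefSeq start site. Windows from 250 bases before to 50 after the start were 95.3% identical between the 2 genes. Each held 1 match to TTGCNNAA, its first base 182 bases before the start in Saa1 and 183 in Saa2, and none to the STAT motif TTCNNNGAA on either strand. Of all 32851 RefSeq windows of this length, 10.8% held the C/EBP motif and 8.30% the STAT motif. A match describes the letters alone. Windows were matched for 8 of the 10 genes, not for Orm1 and Hp. That of Orm2 held TTGCGCAA, read on both strands as the C/EBP motif, 120 bases before the start.

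Saa1 had 122, 156, 55.6 and 70.6 RPM in KO pools 1 to 4. In anti-Ly6G pools 1 to 4 it had 110, 81.5, 1331 and 45.0 RPM, and in control pools 1 to 4 it had 50.7, 95.4, 77.0 and 88.1 RPM. A single pool, anti-Ly6G 3, was far above the rest, and the other 11 pools overlapped whatever their group. The log2 fold change was 0.30 ± 0.76 (SE) in KO versus control (limma adjusted p = 0.865). It was 1.01 ± 0.76 in anti-Ly6G versus control (adjusted p = 0.334) and -0.032 without anti-Ly6G 3 (adjusted p = 0.956). With all pools, edgeR on the recovered reads gave 2.33 (adjusted p = 0.0512) and limma with the mitochondria label as a covariate gave 2.14 (adjusted p = 0.309).

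Saa2 had 79.2, 96.7, 32.9 and 45.1 RPM in KO pools, 58.3, 46.9, 1043 and 28.7 RPM in anti-Ly6G pools and 33.0, 64.8, 47.9 and 58.6 RPM in control pools. The order of pools was close to that of Saa1, with anti-Ly6G 3 again alone at the top. Its log2 fold change was 0.23 ± 0.82 in KO versus control (adjusted p = 0.912) and 0.94 ± 0.82 in anti-Ly6G versus control (adjusted p = 0.407), the value for anti-Ly6G being -0.21 without anti-Ly6G 3 (adjusted p = 0.684), 2.53 by edgeR (adjusted p = 0.0535) and 2.11 with the label (adjusted p = 0.356). For KO versus control the label as a covariate gave 0.87 for Saa1 and 0.81 for Saa2 (adjusted p = 0.678 and 0.728). Because reads may move between the copies, their sum is the safer measure. That sum was 88.5 to 253 RPM in KO pools, 73.7 to 2374 RPM in anti-Ly6G pools and 83.7 to 160 RPM in control pools. The ratio of Saa2 to Saa1 was 0.783 in anti-Ly6G 3 and 0.528 to 0.680 in the other 11 pools.

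Orm1 and Orm2 encode orosomucoid, a plasma glycoprotein that binds drugs and lipids. They are neighbours on the plus strand of chromosome 4 (GRCm38, 63344560 to 63348163 and 63362449 to 63365878), and 68.7% and 60.9% of their 25-base words are unique, so their split is uncertain as well. Orm1 had 732, 876, 438 and 474 RPM in KO pools, 773, 727, 1286 and 557 RPM in anti-Ly6G pools and 386, 738, 620 and 511 RPM in control pools. Anti-Ly6G 3 was highest, KO 2 came next, and the groups overlapped. The log2 fold change was 0.14 ± 0.27 in KO versus control (adjusted p = 0.820) and 0.54 ± 0.27 in anti-Ly6G versus control (adjusted p = 0.150). For anti-Ly6G it was 0.31 without anti-Ly6G 3 (adjusted p = 0.380). With the label as a covariate it was 0.55 for KO (adjusted p = 0.353) and 1.35 for anti-Ly6G (adjusted p = 0.0545).

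Orm2 had 173, 215, 50.4 and 61.1 RPM in KO pools, 73.5, 61.3, 295 and 34.9 RPM in anti-Ly6G pools and 46.7, 146, 70.3 and 77.4 RPM in control pools. High values were those of anti-Ly6G 3 and of KO 1 and 2, with control 2 after them. Its log2 fold change was 0.40 ± 0.60 in KO versus control (adjusted p = 0.757), 0.053 to 0.75 over fits without 1 pool, and 1.30 both with the label as a covariate (adjusted p = 0.323) and for KO 1 and 2 alone (adjusted p = 0.142). In anti-Ly6G versus control it was 0.081 ± 0.60 (adjusted p = 0.933), and -0.53 without anti-Ly6G 3 (adjusted p = 0.444) but 1.87 with the label (adjusted p = 0.195). The ratio of Orm2 to Orm1 differed between pools of the same group, from 0.115 in KO 3 to 0.245 in KO 2 and from 0.0627 in anti-Ly6G 4 to 0.230 in anti-Ly6G 3.

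Hp encodes haptoglobin, which binds free haemoglobin in plasma (chromosome 8, 109575128 to 109579172, minus strand). It was the most abundant member per length, at 3911 ± 630 RPM per kb of exon in KO, 3265 ± 335 in anti-Ly6G and 3086 ± 627 in control pools (SD, n = 4). Hp had 6955, 7279, 5778 and 5112 RPM in KO pools, 4649, 4978, 5870 and 5476 RPM in anti-Ly6G pools and 3707, 5820, 5723 and 4578 RPM in control pools. KO 1 and 2 were above every other pool, while KO 3 and 4 lay within the range of the other groups. The log2 fold change was 0.35 ± 0.16 in KO versus control, which did not pass after adjustment (unadjusted p = 0.0484, adjusted p = 0.262), and 0.10 ± 0.16 in anti-Ly6G versus control (adjusted p = 0.668). With the label as a covariate Hp was at 0.55 for KO (adjusted p = 0.164) and 0.49 for anti-Ly6G (adjusted p = 0.232).

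Apcs encodes serum amyloid P component, a pentraxin and a major acute phase protein of the mouse (chromosome 1, 172893961 to 172895041, minus strand). Its whole exon sequence is unique (100% of 25-base words). The 250 bases before its RefSeq start site (GRCm38.p6, chr1:172895055-172895304, minus strand) are shown with the match to the STAT motif TTCNNNGAA in capitals, its first base 244 bases before the start.
Apcs: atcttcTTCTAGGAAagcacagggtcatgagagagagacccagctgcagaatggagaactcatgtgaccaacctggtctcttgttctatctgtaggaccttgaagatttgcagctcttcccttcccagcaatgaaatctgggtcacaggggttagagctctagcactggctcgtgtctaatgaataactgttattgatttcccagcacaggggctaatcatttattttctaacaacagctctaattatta
Apcs had 482, 614, 611 and 664 RPM in anti-Ly6G pools 1 to 4, against 215, 430, 312 and 290 RPM in control pools 1 to 4. Every anti-Ly6G pool was above every control pool. The means were 593 ± 77.8 RPM in anti-Ly6G and 312 ± 89.1 RPM in control (SD, n = 4), and Apcs rose with a log2 fold change of 0.96 ± 0.24 (95% interval 0.45 to 1.47, limma adjusted p = 0.00849). Fits that left out 1 pool gave 0.80 to 1.13 (adjusted p 0.00577 to 0.0258). A fit with the mitochondria label as a covariate, its label effect taken from the KO pools alone, gave 1.79 (adjusted p = 0.00679).

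In KO pools 1 to 4 Apcs had 311, 442, 197 and 219 RPM, a mean of 292 ± 111 RPM. These values overlapped control, with a log2 fold change of -0.12 ± 0.24 (95% interval -0.63 to 0.39, adjusted p = 0.819). All KO pools were below all anti-Ly6G pools, and Apcs fell in KO versus anti-Ly6G with a log2 fold change of -1.08 ± 0.24 (adjusted p = 0.00487). Between pools of the same NZB label, KO 3 and 4 against anti-Ly6G, it fell by 1.50 on the log2 scale (adjusted p = 0.000593).

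**Figure D1:**
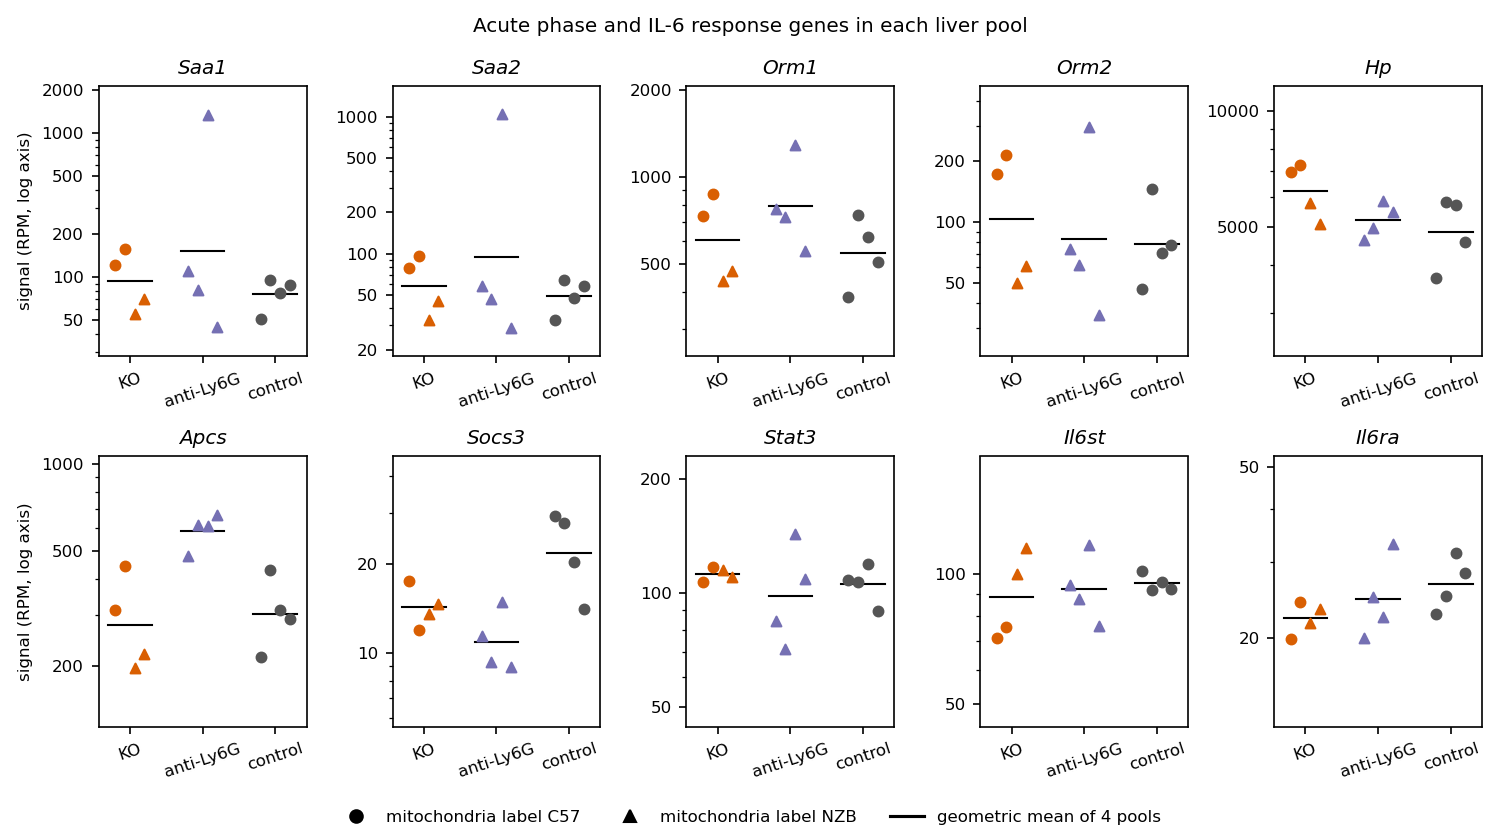
Signal of each of the 10 genes in RPM on a log axis, 1 point per pool, for KO, anti-Ly6G and control, with a line at the geometric mean of the 4 pools and the mitochondria label given by the shape of the point. Anti-Ly6G 3 is the point near the top for Saa1 (1331 RPM) and Saa2 (1043 RPM), and the anti-Ly6G points of Apcs (482 to 664 RPM) lie above the control points (215 to 430 RPM).

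Socs3 encodes the feedback inhibitor of the gp130 signal and is itself a STAT3 target (chromosome 11, 117966079 to 117970047, minus strand, GRCm38). The RefSeq start site lies downstream of the GENCODE start, so the 250 bases before it fall inside the annotated gene. These 250 bases (GRCm38.p6, chr11:117969367-117969616, minus strand) are shown with the match to TTCNNNGAA in capitals, its first base 154 bases before the RefSeq start.
Socs3: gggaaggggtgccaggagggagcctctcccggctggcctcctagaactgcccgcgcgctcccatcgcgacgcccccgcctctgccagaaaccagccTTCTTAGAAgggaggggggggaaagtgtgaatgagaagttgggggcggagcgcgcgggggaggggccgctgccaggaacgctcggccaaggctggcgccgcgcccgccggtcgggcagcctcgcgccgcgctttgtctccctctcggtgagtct
Socs3 had 11.4, 9.33, 14.9 and 8.97 RPM in anti-Ly6G pools 1 to 4, against 29.1, 27.6, 20.3 and 14.1 RPM in control pools 1 to 4. The groups overlapped by 1 pool each, anti-Ly6G 3 being above control 4. The means were 11.2 ± 2.71 RPM in anti-Ly6G and 22.8 ± 6.97 RPM in control (SD, n = 4), and Socs3 fell with a log2 fold change of -0.97 ± 0.21 (95% interval -1.43 to -0.51, adjusted p = 0.00434). Leaving out 1 pool gave -1.18 to -0.84 (adjusted p 0.000747 to 0.0163). The value was -0.92 and no longer passed in a fit that held the mitochondria label as well (adjusted p = 0.142).

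Socs3 had 17.6, 12, 13.5 and 14.7 RPM in KO pools 1 to 4. They were close together, and 1 control pool, control 4, lay among them. The log2 fold change in KO versus control was -0.60 ± 0.21 (unadjusted p = 0.0143, adjusted p = 0.159), which did not pass. It passed without control 4 (-0.80, adjusted p = 0.0383) and with a weight per pool (-0.64, adjusted p = 0.0485). KO versus anti-Ly6G gave 0.37 ± 0.21 (adjusted p = 0.207).

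Stat3, Il6st and Il6ra, the other parts of the signalling chain, passed the test in none of the 3 comparisons. Their promoter windows held neither motif. Stat3, the transcription factor itself, had 107, 117, 115 and 110 RPM in KO pools, 84.1, 71.0, 143 and 109 RPM in anti-Ly6G pools and 108, 107, 119 and 89.7 RPM in control pools. The anti-Ly6G pools spread widest, with pool 3 at the top, and KO pools spread least. The log2 fold change was 0.086 ± 0.17 in KO versus control (95% interval -0.27 to 0.44) and -0.10 ± 0.17 in anti-Ly6G versus control (-0.46 to 0.25). In KO versus anti-Ly6G it was 0.19 ± 0.17 (adjusted p = 0.415), and 0.37 (adjusted p = 0.0458) without anti-Ly6G 3.

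Il6st, encoding the shared receptor chain gp130, had 71.1, 75.5, 99.9 and 115 RPM in KO pools, 94.3, 87.8, 117 and 76.0 RPM in anti-Ly6G pools and 102, 92.1, 96.2 and 92.5 RPM in control pools. Control pools were close together, and both of the other groups spread to either side of them. The 95% interval of the log2 fold change was -0.43 to 0.21 in KO versus control and -0.36 to 0.27 in anti-Ly6G versus control. With the label the fold changes of Il6st were -0.38 for KO (adjusted p = 0.194) and -0.59 for anti-Ly6G (adjusted p = 0.0709). Il6ra, encoding the chain that binds IL-6, was the lowest member per kb of annotated exon. It had 19.9, 24.3, 21.7 and 23.4 RPM in KO pools, 20.0, 24.9, 22.4 and 33.1 RPM in anti-Ly6G pools and 22.8, 25.1, 31.5 and 28.3 RPM in control pools, and the groups overlapped. Its log2 fold change was -0.26 ± 0.14 in KO versus control (95% interval -0.56 to 0.039, adjusted p = 0.331) and -0.12 ± 0.14 in anti-Ly6G versus control (adjusted p = 0.556).

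Per kb of exon, the order of mean levels in control pools was Hp (3086), Orm1 (727), Apcs (321), Orm2 (110), Saa1 (31.4), Saa2 (20.3), Stat3 (11.1), Il6st (8.62), Socs3 (7.87) and Il6ra (3.12), in RPM per kb. Among neighbours in this order, the control pools overlapped for Saa1 (20.4 to 38.5 RPM per kb) and Saa2 (13.1 to 25.7), and for Il6st (8.30 to 9.19) and Socs3 (4.87 to 10.1), and not for the other pairs. The exon length used joins the exons of all annotated transcripts of a gene. For Saa1 (2.478 kb) and Saa2 (2.518 kb) it covers nearly the whole gene. A level per kb is too low where the transcripts present are shorter than this length, so the order holds for this length alone. Of the ligands that feed the pathway, Il6, Osm, Lif, Il11 and Tnf were not among the listed genes. Il1b was listed, at 4.59 to 6.28 RPM in KO, 0.97 to 7.46 RPM in anti-Ly6G and 2.90 to 5.42 RPM in control pools, and passed in no comparison.

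Counted over the list, 0 of the 10 members passed limma's test in KO versus control, where 1.12% of all genes did, 0.585% higher and 0.534% lower. At an unadjusted p under 0.05 there were 2, Hp and Socs3, and neither edgeR nor DESeq2 called a member. DESeq2 gave no adjusted p for Saa1 and Saa2, here or in the other comparisons, so it did not test these genes. The median log2 fold change of the members was 0.11, against -0.001 over all genes. In anti-Ly6G versus control 1 member rose and 1 fell, and 8 did not pass. There 30.4% of all genes passed, 15.1% higher and 15.3% lower, so the members' 2 of 10 is not above that share. In KO versus anti-Ly6G 1 member fell and 9 did not pass, against 26.8% of all genes, 13.6% higher and 13.1% lower. The comparisons with control share their control pools.

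**Figure D2:**
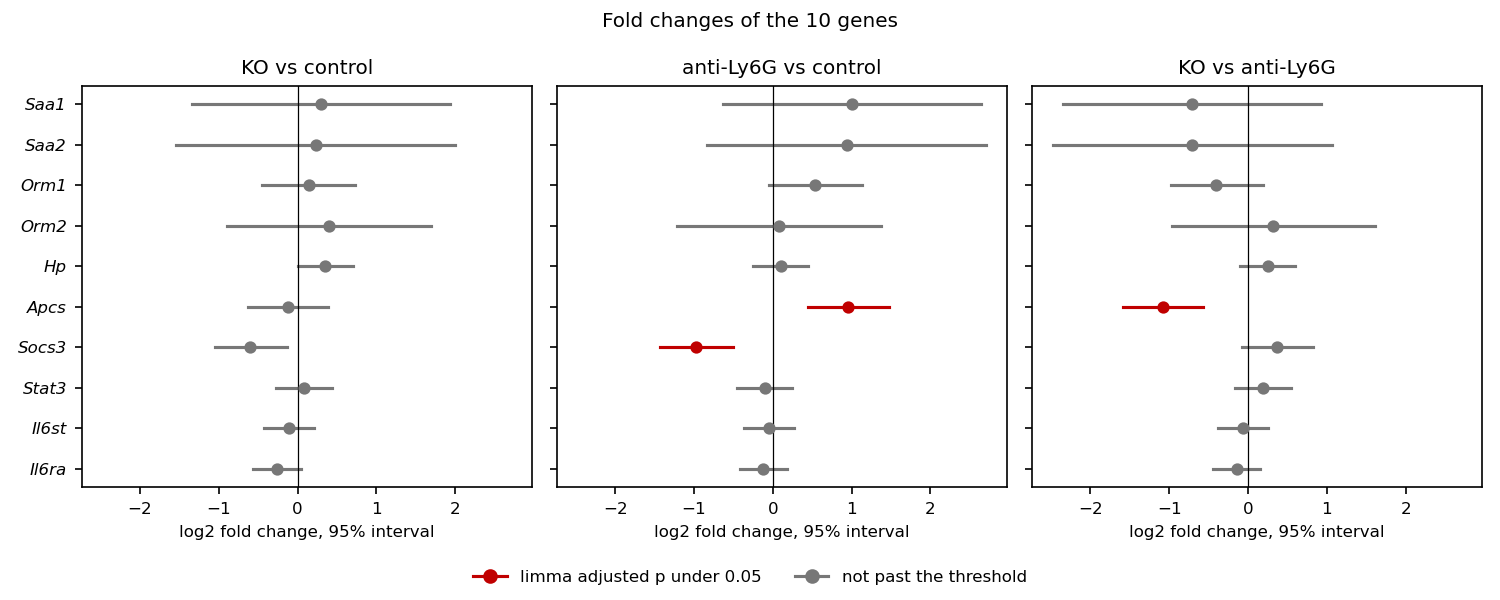
Log2 fold changes of the 10 genes with 95% intervals from the limma fit, in KO versus control, anti-Ly6G versus control and KO versus anti-Ly6G, with red for an adjusted p under 0.05. Red are Apcs (0.96) and Socs3 (-0.97) in anti-Ly6G versus control and Apcs (-1.08) in KO versus anti-Ly6G, and the widest intervals are those of Saa1, Saa2 and Orm2.

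Anti-Ly6G 3 was examined across a wider set, 40 further genes grouped here as positive acute phase genes, of which 38 were listed. The set also holds genes of proteins that are not secreted, such as the lipid droplet protein gene Plin2, so its counts do not describe secreted acute phase proteins alone. The pool was singled out by its values of Saa1, Saa2 and Orm2, so its counts over the members partly restate that choice. It was the highest of the 12 pools for 6 of the 10 members and 11 of these 38 genes, against 10.3% of all genes. With all pools scaled to equal totals the counts were 5 and 11, against 10.9% of all genes. The 11 were the fibrinogen chains Fga, Fgb and Fgg, the protease inhibitors Serpina3n, Itih3, Itih4 and Pzp, the haem carrier Hpx, hepcidin (Hamp), Lrg1 and Fgl1. Fga had 2792, 2942, 6716 and 3656 RPM in anti-Ly6G pools 1 to 4, against 3894, 4206, 4521 and 3007 RPM in control pools 1 to 4. Pool 3 was highest for fibrinogen as for serum amyloid A, by a smaller factor over the next highest pool, 1.49-fold for Fga against 8.52-fold for Saa1 and 10.8-fold for Saa2. Lcn2, lipocalin-2, had 179, 150, 488 and 163 RPM in anti-Ly6G pools with pool 3 again highest.

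Not every inducible gene followed. Saa3, the serum amyloid A gene made mainly outside hepatocytes, had 9.48, 12.2, 13.7 and 4.93 RPM in anti-Ly6G pools 1 to 4, with pool 3 little above pool 2. Crp had 286 RPM in pool 3, the lowest of the 4. Among the 4 anti-Ly6G pools, pool 3 was the highest for 8 of the 10 members and 20 of the 38 other positive acute phase genes, against 26.5% of all genes. The 8 members include Saa1, Saa2 and Orm2, by which the pool was singled out. Pool 3 was the lowest for 6 of 16 negative acute phase genes and the highest for none of them, against 24.5% and 26.5% of all genes. The summed signal of the negative genes was 128847 RPM in pool 3 and 155412 to 176441 RPM in the other 3 anti-Ly6G pools. Hepatocyte markers had a sum of 122231 RPM in pool 3 and 149970 to 164272 RPM in the other 3. This list shares Alb, Ttr, Apoa1 and Tat with the negative genes, so the 2 sums are not separate observations. Over all genes, 4 were at least 2-fold above every other pool in anti-Ly6G 3: Saa2, Saa1, Gm15611 and Kcnt2. What set this pool apart was not tested.

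The KO pools fell into a higher and a lower pair by their mitochondria label. Both KO pools of label C57 were above both of label NZB in all 6 secreted members, and both were below in Il6st, while 26.9% of all genes were above and 27.0% below. Apcs averaged 377 RPM in KO 1 and 2 and 208 RPM in KO 3 and 4, a log2 difference of 0.83 ± 0.25. Orm2 averaged 194 RPM in KO 1 and 2 and 55.8 RPM in KO 3 and 4, a difference of 1.79 ± 0.72. Il6st averaged 73.3 RPM in KO 1 and 2 and 107 RPM in KO 3 and 4, a difference of -0.54 ± 0.15. None of these passed in a fit that split the KO group by this label, which was chosen after seeing the data (limma adjusted p = 0.279 for Apcs, 0.420 for Orm2 and 0.237 for Il6st). That fit called 0 of 11791 genes, with 1160 at an unadjusted p under 0.05, and other tools were not run on it.

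Other positive acute phase genes, among them genes of proteins that are not secreted, split the same way. Of the 38 other positive acute phase genes, 33 were above in both KO pools of label C57, 1 was below (Plin2) and 4 overlapped. Lcn2 had 446 and 538 RPM in KO 1 and 2 and 193 and 197 RPM in KO 3 and 4, and the metallothionein gene Mt2 had 302 and 433 RPM in KO 1 and 2 and 84.5 and 150 RPM in KO 3 and 4. Of the 16 negative acute phase genes, which fall in inflammation, 12 were above as well. With all pools scaled to equal totals, which moved the median log2 difference of all genes to -0.11, 6 of the 10 members, 28 of the 38 positive and 9 of the 16 negative genes were above and 2, 4 and 2 below, against 13.3% of all genes above and 46.7% below. In the deposited scaling, 6 of 14 hepatocyte markers were above and 3 below, and with equal totals 5 were above and 5 below. The deposited summed signals of the hepatocyte markers were 136795 and 145359 RPM in KO 1 and 2 and 119578 and 119226 RPM in KO 3 and 4. These markers are not separate from the lists above, sharing Alb, Ttr, Apoa1 and Tat with the negative genes and Serpina1a with the positive ones. Of 8 endothelial markers 6 were below in the deposited scaling, 7 with equal totals, and none above in either, with deposited sums of 141 and 162 RPM in KO 1 and 2 and 183 and 240 RPM in KO 3 and 4. In bulk liver, fewer cells of a type and less RNA per cell cannot be told apart, and the part of cell makeup in these differences was not tested.

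**Figure D3:**
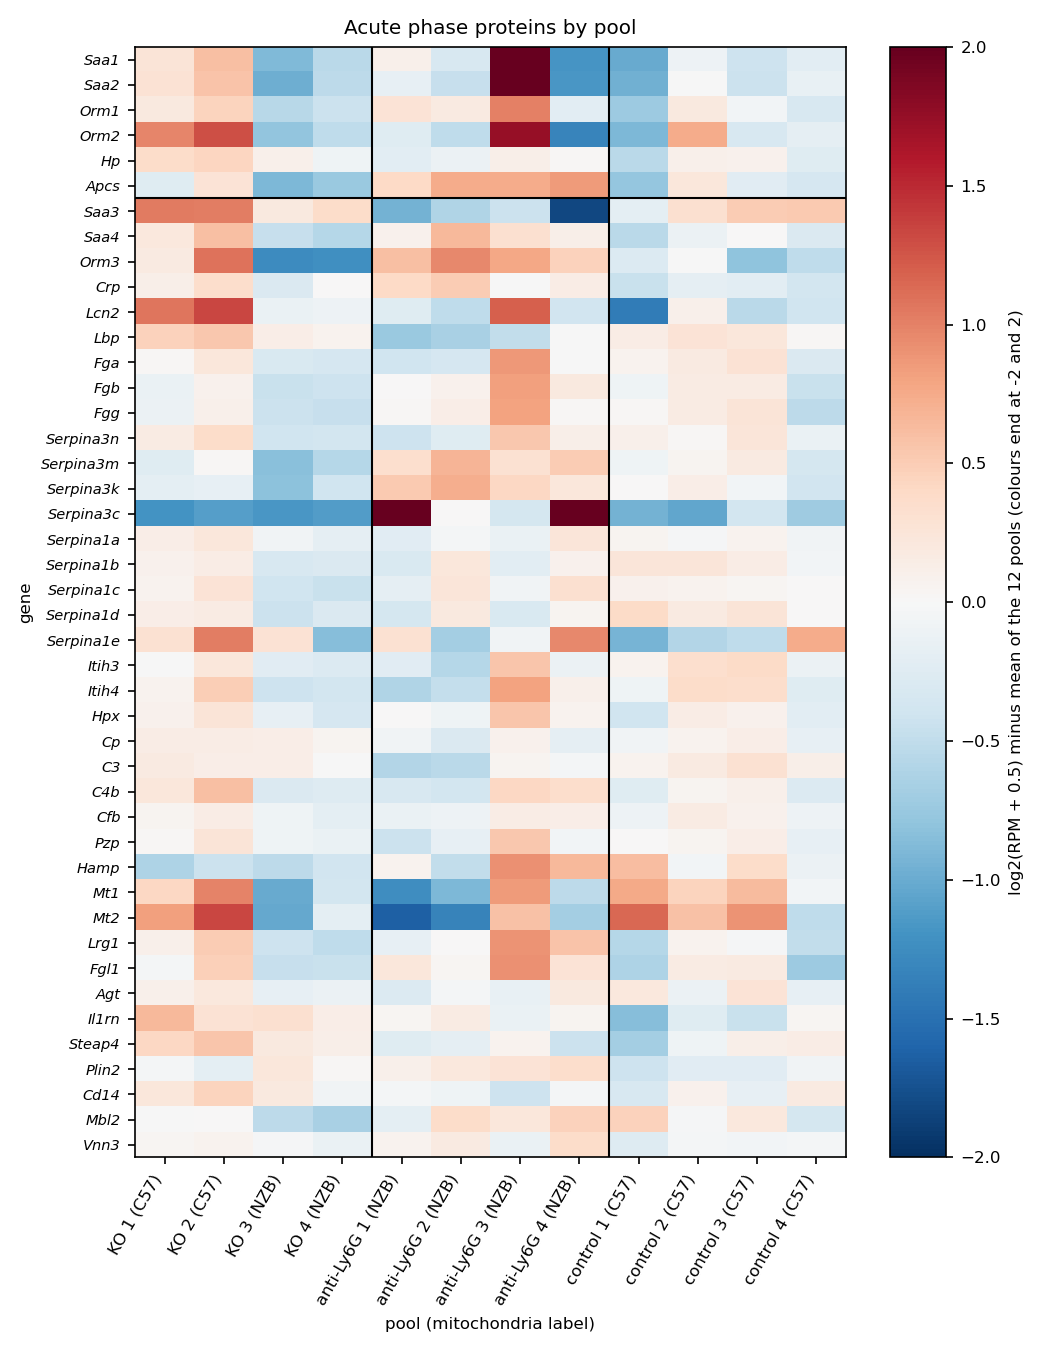
Log2(RPM + 0.5) minus the mean of the 12 pools for the 6 secreted members (above the line) and 38 other positive acute phase genes, with 1 column per pool in the order KO, anti-Ly6G, control, and colours ending at -2 and 2. The columns of KO 1 and 2 are redder than those of KO 3 and 4 for most rows, and anti-Ly6G 3 is darkest for Saa1, Saa2 and Orm2 and red for Fga, Fgb and Fgg.

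Compared between groups, the 38 other positive acute phase genes moved in both directions in anti-Ly6G versus control. There 5 rose, 3 fell and 30 did not pass, with a median log2 fold change of 0.05 against -0.002 over all genes, so 8 of 38 passed where 30.4% of all genes did, 15.1% higher and 15.3% lower. The lipid droplet protein gene Plin2 rose, with 1735 to 2049 RPM in anti-Ly6G and 1206 to 1527 RPM in control pools (log2 0.47, adjusted p = 0.00462). Crp, C-reactive protein, rose too, with 286 to 409 RPM in anti-Ly6G and 211 to 255 RPM in control pools (log2 0.56, adjusted p = 0.00736). Saa3 fell, with 4.93 to 13.7 RPM in anti-Ly6G and 16.3 to 27.2 RPM in control pools (log2 -1.24, adjusted p = 0.00523). Lbp, which presents bacterial lipopolysaccharide to immune cells, fell with 99.2 to 165 RPM in anti-Ly6G and 169 to 201 RPM in control pools (log2 -0.64, adjusted p = 0.00538). Pools of these 4 genes did not overlap, which adds little, as they were named for their low p in this comparison. With the mitochondria label as a covariate Crp passed (0.94, adjusted p = 0.0186) and the other 3 did not (0.22, adjusted p = 0.398 for Plin2; -0.49, adjusted p = 0.494 for Saa3; -0.24, adjusted p = 0.512 for Lbp). The list then stood at 6 that rose and 0 that fell, where 8.25% of all genes passed. Without anti-Ly6G 3 it stood at 6 that rose and 6 that fell, where 29.6% of all genes passed.

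In KO versus control 1 of the 38 rose, the IL-1 receptor antagonist gene Il1rn, and 0 fell. Il1rn had 29.4, 22.6, 23.1 and 20.3 RPM in KO pools, against 10.0, 15.5, 13.4 and 18.9 RPM in control pools. The pools did not overlap, but the call was near the threshold (log2 0.73, adjusted p = 0.0459), and it was lost under 13 alternatives, whose adjusted p was 0.0511 to 0.123.

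The 16 negative acute phase genes, among them albumin, transthyretin and several enzymes, held no called gene by limma in either comparison with control. In anti-Ly6G versus control 4 had an unadjusted p under 0.05, while edgeR called 2 and DESeq2 called 3. The lowest p was that of Cyp2c29, a cytochrome P450 of drug metabolism, with 129 to 225 RPM in anti-Ly6G and 168 to 308 RPM in control pools (log2 -0.53, adjusted p = 0.0525). For KO versus control 3 had an unadjusted p under 0.05, with 0 calls by edgeR and 3 by DESeq2. Lowest in p was Igf1, the growth factor, with 328 to 352 RPM in KO and 396 to 455 RPM in control pools (log2 -0.29, adjusted p = 0.0522), and its pools did not overlap.

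Upstream of STAT3, 7 of 17 genes for IL-6 family ligands and receptors were listed. In anti-Ly6G versus control 1 rose and 1 fell. Clcf1, a cytokine of the family, fell at a low level, with 2.21, 1.62, 2.10 and 1.13 RPM in anti-Ly6G pools against 3.28, 3.46, 2.38 and 3.17 RPM in control pools (log2 -0.67, adjusted p = 0.0279). Adam17, the protease that sheds IL-6 receptor, rose with 16.5 to 20.7 RPM in anti-Ly6G and 13.9 to 17.7 RPM in control pools (log2 0.26, adjusted p = 0.0479). Both calls were lost under several fits that left out a pool, with an adjusted p of up to 0.0743 for Clcf1 and 0.132 for Adam17. With the label as a covariate Clcf1 passed at -1.33 (adjusted p = 0.0231) and Adam17, at 0.41, did not (adjusted p = 0.124). The 2 calls among 7 genes compare with the 30.4% of all genes called. Between KO and control limma called 0 of the 7 (1 at an unadjusted p under 0.05, 0 by edgeR and 0 by DESeq2), and Adam17 had a log2 fold change of 0.31 (adjusted p = 0.104).

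Of 25 listed JAK kinases, STAT factors and their regulators, 5 rose, 7 fell and 13 did not pass in anti-Ly6G versus control, where 15.1% of all genes rose and 15.3% fell. Gab1, an adaptor of the gp130 complex, fell with 5.56 to 9.16 RPM in anti-Ly6G and 10.8 to 14.3 RPM in control pools (log2 -0.63, adjusted p = 0.00382). Jak1, the kinase bound to gp130, fell with 83.2 to 97.1 RPM in anti-Ly6G and 104 to 110 RPM in control pools (log2 -0.28, adjusted p = 0.00852). Of the other suppressors of cytokine signalling, Socs6 fell (log2 -0.51, adjusted p = 0.00629) and Socs4 rose (log2 0.33, adjusted p = 0.00887), so members of the family moved in opposite directions. With the mitochondria label as a covariate these 4 were no longer called. The fold changes of Gab1 (-0.79, adjusted p = 0.0559) and Jak1 (-0.39, adjusted p = 0.0573) were larger in size there, and those of Socs6 (-0.35, adjusted p = 0.292) and Socs4 (0.22, adjusted p = 0.337) were smaller. In KO versus control limma called 0 of the 25, with 8 at an unadjusted p under 0.05, 0 by edgeR and 3 by DESeq2. Socs7 had the lowest p there, with 10.7 to 13.4 RPM in KO and 14.7 to 18.2 RPM in control pools (log2 -0.42, adjusted p = 0.0595).

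Downstream, 28 of 29 further genes known to respond to STAT3 or C/EBP were listed, and in anti-Ly6G versus control 2 rose, 9 fell and 17 did not pass, with a median log2 fold change of -0.21. The 11 of 28 called compare with 30.4% of all genes, and the 9 that fell with 15.3%. The 4 of lowest p were the immediate early genes Fos and Junb and the kinase genes Pim1 and Pim3, all induced within minutes to hours by cytokines and growth factors. Pim1 fell, with 7.52, 8.77, 7.06 and 7.03 RPM in anti-Ly6G pools against 24.8, 24.3, 18.1 and 22.8 RPM in control pools (log2 -1.50, adjusted p = 4.28e-06). Pim3, a kinase of the same family, fell with 45.3 to 66.7 RPM in anti-Ly6G and 95.7 to 197 RPM in control pools (log2 -1.08, adjusted p = 0.00116). Junb had 26.0 to 33.3 RPM in anti-Ly6G and 43.7 to 82.7 RPM in control pools (log2 -1.09, adjusted p = 0.000749). Fos had 0.97 to 3.03 RPM in anti-Ly6G and 3.56 to 5.61 RPM in control pools (log2 -1.35, adjusted p = 0.00102). None of these 4 overlapped between the groups, which adds little, as they were named for their low p in this comparison. With the mitochondria label as a covariate Pim1 (-1.47) and Pim3 (-1.21) passed and Junb (-0.95, adjusted p = 0.0777) and Fos (-1.15, adjusted p = 0.0961) did not, and the list stood at 0 that rose and 2 that fell, where 8.25% of all genes passed.

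Against control, KO pools gave 0 limma calls among these 28 genes, with 8 at an unadjusted p under 0.05, 0 by edgeR and 2 by DESeq2. Bcl3, an NF-kB regulator, had the lowest p, with 15.9 to 20.7 RPM in KO and 11.1 to 17.1 RPM in control pools (log2 0.55, adjusted p = 0.0961). In KO versus anti-Ly6G 12 of the 28 rose and 0 fell, where 13.6% of all genes rose and 13.1% fell. Pim1 had 20.5, 14.3, 15.9 and 17.7 RPM in KO pools, above every anti-Ly6G pool (log2 1.12, adjusted p = 5.61e-05). Within pools of NZB label, KO 3 and 4 against anti-Ly6G, 8 of the 28 rose and 0 fell, where 13.2% of all genes passed in either direction.

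IL-1 and TNF act through NF-kB beside the IL-6 signal. Of 18 listed genes of that arm 9 fell, 0 rose and 9 did not pass in anti-Ly6G versus control, with a median log2 fold change of -0.34, where 15.1% of all genes rose and 15.3% fell. Tnfaip3, an inhibitor of NF-kB, fell with 5.31, 5.88, 5.20 and 3.56 RPM in anti-Ly6G pools against 8.89, 11.0, 9.21 and 11.0 RPM in control pools (log2 -0.95, adjusted p = 0.000228). Nfkbia, another NF-kB inhibitor, fell by 0.34 on the log2 scale (adjusted p = 0.00626), and the TNF receptor gene Tnfrsf1b fell by 0.40 (adjusted p = 0.0127). With the label as a covariate the list stood at 1 that rose and 1 that fell, where 8.25% of all genes passed. Tnfaip3 was still called there (-0.94, adjusted p = 0.0304). Nfkbia was no longer called at a similar fold change (-0.37, adjusted p = 0.122), and neither was Tnfrsf1b at a smaller one (-0.19, adjusted p = 0.522). Il1r1, the signalling receptor for IL-1, fell in both comparisons with the shared controls. It had 22.9, 25.4, 25.3 and 23.6 RPM in KO pools and 26.0, 36.7, 31.0 and 34.4 RPM in anti-Ly6G pools, against 34.3, 48.0, 47.9 and 47.1 RPM in control pools. The log2 fold change was -0.84 in KO (adjusted p = 0.0115, and 0.0536 without control 2) and -0.46 in anti-Ly6G (adjusted p = 0.0116, and with the label as a covariate -0.48, adjusted p = 0.176). Il1rn rose and Il1r1 fell in KO versus control, and 16 of the 18 did not pass. Some genes are in more than 1 list, so counts of the lists are not fully separate. Tnfrsf1a is in this list and in the STAT3 and C/EBP list. Il1rn is in this list and Mt2 in the STAT3 and C/EBP list, and both are also among the positive acute phase genes.

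**Figure D4:**
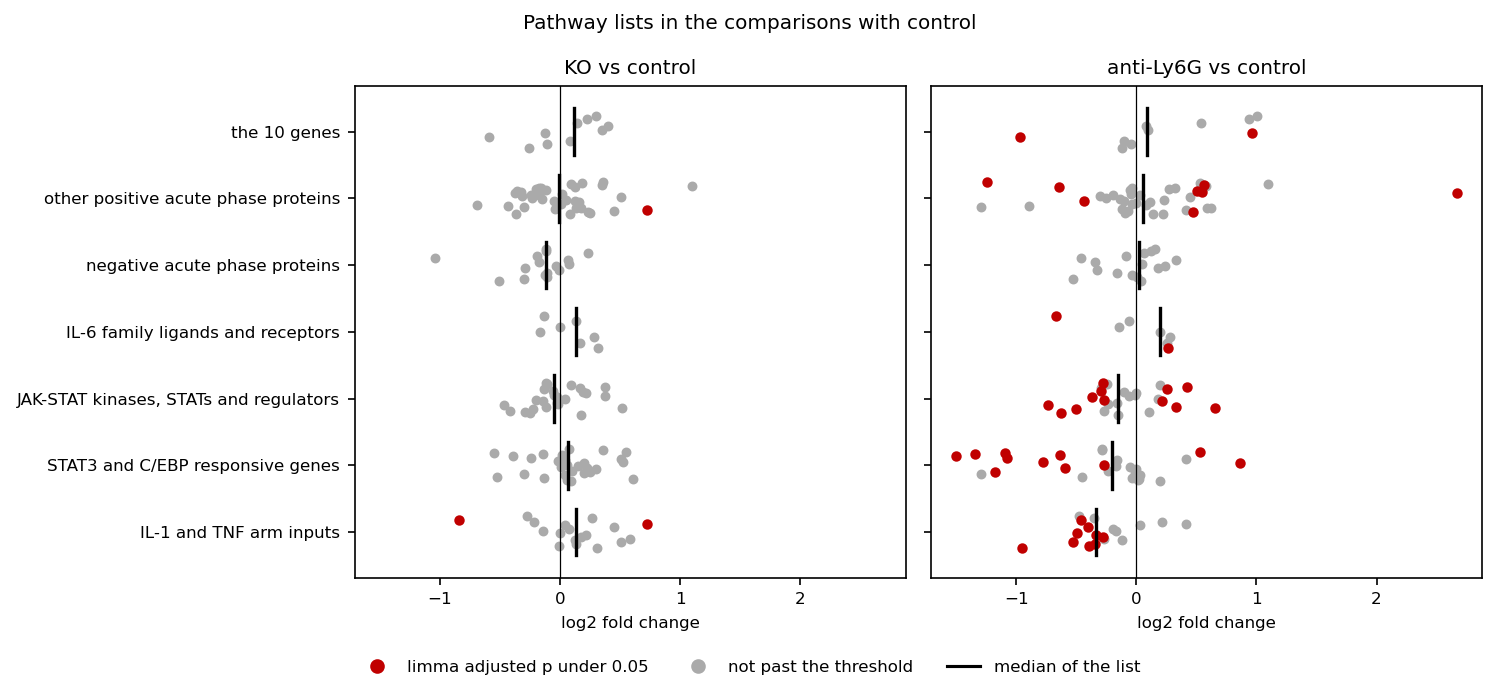
Log2 fold changes in KO versus control (left) and anti-Ly6G versus control (right) for the 10 genes and 6 lists of related genes, 1 point per gene, red for a limma adjusted p under 0.05, with a black bar at the median of each list. Red points are few in KO versus control (Il1rn, drawn in both lists that hold it, and Il1r1), and in anti-Ly6G versus control the medians of the STAT3 and C/EBP list (-0.21) and of the IL-1 and TNF list (-0.34) lie left of 0.

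In anti-Ly6G versus control, genes fell and none rose in every marker list but that of hepatocytes. Over all genes 15.1% rose and 15.3% fell. Of 17 neutrophil markers 7 were listed, Ly6g not among them, and 5 of the 7 fell in anti-Ly6G versus control. S100a8 had 0.885, 0.811, 0.906 and 0.566 RPM in anti-Ly6G pools, against 2.33, 3.71, 2.44 and 2.77 RPM in control pools. All 7 summed to 255 to 595 RPM in KO, 194 to 533 RPM in anti-Ly6G and 154 to 337 RPM in control pools. Without Lcn2, which hepatocytes also make, the other 6 summed to 57.4 to 66.0 RPM in KO, 43.3 to 48.9 RPM in anti-Ly6G and 69.1 to 109 RPM in control pools. Of 15 listed monocyte and macrophage markers 7 fell in anti-Ly6G versus control, with sums of 925 to 1097 RPM in KO, 382 to 567 RPM in anti-Ly6G and 635 to 1105 RPM in control pools. Stellate cell and fibroblast markers summed to 503 to 622 RPM in KO, 298 to 449 RPM in anti-Ly6G and 399 to 564 RPM in control pools, and 6 of 10 fell in anti-Ly6G. Of the listed markers of other types, 3 of 3 for B, plasma and T cells, 3 of 8 for endothelium and 2 of 2 for cholangiocytes fell. Of 14 hepatocyte markers 1 rose and 2 fell. The part of these cells in the values of Socs3 and of the lists above was not tested.

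Genes whose pattern over the 12 pools was nearest to that of Socs3 and of Saa1 were found from centred log2 values, by the root mean square difference. Nearest to Socs3 were Dyrk2 (0.20), Junb (0.21) and the clock repressor gene Nr1d1 (0.21), where Socs3 itself spread by 0.50 around its mean. Nr1d1 had 123, 99.8, 108 and 100 RPM in KO pools, 64.4, 63.2, 97.6 and 81.3 RPM in anti-Ly6G pools and 216, 187, 125 and 131 RPM in control pools. Like Socs3 it was highest in control 1 and 2. Nearest to Saa1 were Saa2 (0.13), Orm2 (0.69) and Kcnt2 (0.81), where Saa1 itself spread by 1.22. The likeness to Saa1 is weighted by anti-Ly6G 3, the pool farthest from the mean. Saa2 also shares sequence with Saa1 (53.4% of the 25-base words of Saa1), so part of their likeness may come from shared reads.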

How the data were processed

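Per the labels' protocols, total liver RNA of 12 pools was read on an Illumina Genome Analyzer IIx. The authors deposited a signal per gene for 11791 genes, in columns named as normalized. The submitters' processing notes name the build GRCm38 and the tools Bowtie2 2.0.6, RSEM 1.2.3, edgeR and cutadapt 1.2.1. Which edgeR version, annotation, strand setting and rule for listing genes were used is not given in the sources used here. In each column at least 99.99% of values were whole multiples, within 0.01 read, of the value of 1 read, and these multiples were taken as reads for edgeR and DESeq2. A stricter check on low values passed in 4 columns and gave no pass in the other 8, so the reads recovered there rest on the whole multiples alone. Columns sum to 0.922 to 1.06 M, written here as RPM.

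limma-trend (limma 3.58.1, R 4.3.3) was fitted to log2(signal + 0.5) over all 12 pools with group as the only term, two-sided, with Benjamini-Hochberg adjustment over all genes at 0.05. Fold changes on this scale understate the change of low genes. edgeR 4.0.16 (quasi-likelihood) and DESeq2 1.42.0 on the recovered reads, other pseudocounts, a stricter filter, 2 other scalings, weights per pool, the mitochondria label, pools of 1 label and leaving out each pool were the alternatives. On simulated data with a log2 change of 1 the fit recovered 96% of 100 changed genes in KO against control, 90% in anti-Ly6G against control and 87% in KO against anti-Ly6G. In all 3 simulated comparisons it was run on 11791 genes. The changed genes were drawn at random from all genes, with noise independent between genes. These shares therefore do not hold for members of wide spread, such as Saa1, Saa2 and Orm2, whose SE was 0.76, 0.82 and 0.60.

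Coordinates, exon lengths and 25-base words came from GENCODE vM21 on GRCm38, and upstream sequences from RefSeq on GRCm38.p6. The 10 genes, the gene lists and the naming rule were chosen with earlier results of these data known. From each list and comparison with control the rule names up to 4 called genes of lowest p, or the 1 of lowest p where none was called. Genes named outside it, such as those led by anti-Ly6G 3, were chosen after their values were seen.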

Additional observations from a re-analysis of the deposited data

Results flagged for a closer look

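In groups of 4 pools, a pool was marked where its gap to the nearest other pool was a larger share of the group's range than Dixon's 95% critical value. Of 99 groups checked, 33 genes in 3 groups each, 7 were marked, and chance marks about 1 in 20. Saa1 in anti-Ly6G 3 had 1331 RPM and its nearest pool 110 RPM. Saa2 in anti-Ly6G 3 had 1043 RPM and its nearest pool 58.3 RPM, and Orm2 there had 295 RPM and its nearest pool 73.5 RPM. The remaining 4 lay in other pools. Jak1 in KO 4 had 110 RPM, above 95.5 to 97.4 RPM in the other KO pools. Tnfrsf1b in anti-Ly6G 4 had 28.7 RPM, above 25 to 25.6 RPM in the other anti-Ly6G pools. Bcl3 in control 4 had 17.1 RPM, above 11.1 to 11.5 RPM in the other control pools, and Il1r1 in control 1 had 34.3 RPM, below 47.1 to 48.0 RPM there. For Il1r1, leaving out control 1 did not end the call in KO versus control, whose adjusted p over fits without 1 pool was 0.00163 to 0.0536.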

How the results depend on the processing

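Of 594 values of the 10 genes under alternatives, 561 kept direction and call, 1 lost its call, 3 gained one and 29 changed sign, all 29 below the threshold both ways. The causes were not tested. In KO versus control 132 genes were called, and 577 by DESeq2, 803 with weights per pool and 79 with the mitochondria label as a covariate, of which 31.6% were higher against 52.3% in the reported fit. Without 1 pool it was 3 to 319: 38, 3, 47 and 319 without control 1 to 4, and 38, 34, 23 and 87 without KO 1 to 4. Members called were 0, and 1 (Socs3) with weights and without control 4, so 0 to 1 without 1 pool. In anti-Ly6G versus control 3580 genes and 2 members were called, with the label as a covariate 973 and 1 (Apcs). In KO versus anti-Ly6G 3157 genes and 1 member were called, 1554 genes in KO 3 and 4 against anti-Ly6G, and 1 to 2 members without 1 pool.

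In KO versus control the sign turned without 1 pool for Saa2 (-0.016 to 0.50), Orm1 (-0.038 to 0.29) and Apcs (-0.35 to 0.047), with weights for Orm1 (-0.063), and for Apcs with the label as a covariate (0.29) and in KO 1 and 2 alone (0.29). In anti-Ly6G versus control it turned without 1 pool for Saa1 (-0.032 to 1.59), Saa2 (-0.21 to 1.51), Orm2 (-0.53 to 0.49), Hp (-0.033 to 0.18), Stat3 (-0.29 to 0.050) and Il6st (-0.16 to 0.051), and with weights for Orm2 (-0.14) and Hp (-0.032). In KO versus anti-Ly6G it turned without 1 pool for Saa1 (-1.29 to 0.33), Saa2 (-1.28 to 0.44), Orm2 (-0.089 to 0.93) and Il6st (-0.19 to 0.048), with the label as a covariate for Orm2 (-0.57) and Il6st (0.21), in KO 3 and 4 against anti-Ly6G for Orm2 (-0.57) and Il6st (0.21), and with equal totals per pool for Il6st (0.046).

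The replicate block changed no call of the 10 genes and gave 20 genes in KO versus control, where it took the calls of Il1rn (adjusted p = 0.0838) and, in anti-Ly6G versus control, of Clcf1 (0.0531) and Adam17 (0.0628). Same-numbered pools deviated together with correlations of -0.21 to 0.17, so the numbers were not taken as pairs. No gene was removed by the filter, so a fit without it would be identical and was not run apart. Depth limits S100a8 most, with 7 reads in its lowest pool.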

Other observations

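A few other acute phase genes, chosen after their values were seen, differed between groups. Hepcidin (Hamp), a STAT3 target that controls iron release, had 511, 583, 545 and 599 RPM in KO pools, against 826, 556, 1486 and 1227 RPM in anti-Ly6G pools, and fell in KO versus anti-Ly6G (log2 -0.78, limma adjusted p = 0.0344). All 4 KO pools were also below every control pool (721 to 1205 RPM), a difference that did not pass (log2 -0.69, adjusted p = 0.163). Hamp has a close copy, Hamp2, and the sources used here do not give how shared reads were assigned.

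The serine protease inhibitor genes Serpina3k and Serpina3m were higher in anti-Ly6G pools, the groups not overlapping. Serpina3k had 5104, 5847, 4714 and 4147 RPM in anti-Ly6G pools, against 3569, 3865, 3421 and 2720 RPM in control pools (log2 0.55, adjusted p = 0.0213). Serpina3m had 665, 837, 650 and 745 RPM in anti-Ly6G pools, against 494, 546, 597 and 410 RPM in control pools (log2 0.51, adjusted p = 0.0335). Serpina3c, of the same cluster, had 92.0, 4.76, 3.62 and 73.0 RPM in anti-Ly6G pools and 2.05 to 3.56 RPM in control pools, so its fold change (log2 2.67, adjusted p = 0.0238) rests on anti-Ly6G 1 and 4. This family holds many similar copies, and the split of reads among them is uncertain.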
